A study of Homo sapiens with 14 samples.

Results

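The genes described here encode components and regulators of the complement system and were chosen by their symbols: C3, C1R, C1S, C5, CFB, SERPING1, CD46, CD55 and CD59. They are 9 of the 60683 gene identifiers counted in each library. Complement is a cascade of plasma proteins that tags surfaces and can lyse cells. In the classical pathway the proteases C1r and C1s start the cascade, in the alternative pathway factor B forms a protease together with C3b, and both routes cleave C3 and then C5, from which the membrane attack complex is assembled. C1 inhibitor, the product of SERPING1, blocks C1r and C1s, while CD46, CD55 and CD59 protect the cell's own surface. Most of the fluid-phase proteins come from the liver, but epithelial cells and fibroblasts also make them, and inflammatory cytokines raise their expression.

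RNA was sequenced from A549, a human lung cancer line, and SUM159, a human breast cancer line. A549 cells were untreated, or received 2 μM palbociclib (an inhibitor of CDK4 and CDK6) for 10 days, 0.5 μM indisulam (a sulfonamide that leads to degradation of the splicing factor RBM39) for 10 days, both drugs at those doses for 10 days, or 0.5 μM PF-06873600, described as inhibiting the kinases CDK2, CDK4 and CDK6, for 7 days. SUM159 cells were untreated or received 0.5 μM PF-06873600 for 7 days. The study asked whether blocking CDK2 deepens the senescence that palbociclib induces, and the sources used here do not give when the untreated cells were collected. Each of the 7 groups had 2 libraries, 14 in all, which the series describes as technical duplicates, so the p-values measure only the spread between such libraries.

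Between 13060374 and 21149256 reads per library were counted on genes. Levels are given as CPM, the count scaled by the library's total on genes, and 3 counts, the smallest level taken as detectable, equalled 0.142 to 0.230 CPM, which covers counting error only. The spread between libraries of 1 group exceeded sampling noise in all 7 groups (chi-square divided by its degrees of freedom, 1.66 to 10.5). All 6 epithelial markers reached 1 CPM in A549. In SUM159 3 of 6 did, since EPCAM, KRT19 and CDH1 stayed under 1 CPM in every library, while 6 of 6 fibroblast and 5 of 5 mesenchymal markers reached it. In untreated A549 4 of 5 mesenchymal, 4 of 6 hepatocyte and 1 of 6 fibroblast markers also reached 1 CPM. Of the 7 leukocyte markers, CD3E and MS4A1, which mark T and B cells, were at 0 in both lines, and CD68 stayed under 1 CPM. PTPRC stood at 9.35 to 20.3 CPM in SUM159 and at most 0.556 CPM in A549. The mean CD14 level ran from 4.55 ± 0.681 CPM (SD, n = 2) in untreated A549 to 11.6 ± 0.636 with indisulam and was 3.58 ± 0.427 in treated SUM159. LYZ stood at 2.00 to 4.90 CPM in A549, and ITGAM reached 4.63 CPM in A549 and 6.25 CPM in SUM159. In RNA from a whole culture, fewer cells of a type and less RNA per cell cannot be told apart. Fold changes, adjusted p-values and 95% intervals are from the quasi-likelihood test of edgeR with Benjamini-Hochberg adjustment over all genes tested, and a gene is called when its adjusted p is under 0.05.

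C1R and C1S encode the paired serine proteases of the C1 complex. They lie next to each other on chromosome 12 (C1S at 6988259 to 7071032 on the plus strand, C1R at 7080214 to 7092540 on the minus strand, hg38). C1R stood at 152 and 148 CPM in untreated A549, 226 and 220 with palbociclib, 406 and 417 with indisulam, 395 and 386 with both drugs, 404 and 389 with PF-06873600, 24.3 and 21.7 in untreated SUM159 and 201 and 203 in treated SUM159. C1S stood at 177 and 186 CPM in untreated A549, 307 and 300 with palbociclib, 470 and 458 with indisulam, 528 and 521 with both drugs, 620 and 615 with PF-06873600, 17.2 and 16.4 in untreated SUM159 and 366 and 364 in treated SUM159. For both genes every treated library lay above both untreated libraries of its line, and the order of the A549 treatments differed between them. The indisulam libraries were highest for C1R and the PF-06873600 libraries were highest for C1S. C1R did not separate the combination from PF-06873600, whose libraries overlapped.

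Against untreated A549, C1R rose by 0.57 on the log2 scale with palbociclib (SE 0.0540, adjusted p 6.13e-06), 1.46 with indisulam (SE 0.0540, 7.29e-11), 1.38 with both drugs (SE 0.0540, 1.99e-11) and 1.40 with PF-06873600 (SE 0.0540, 4.02e-11). The corresponding rises of C1S were 0.74, 1.35, 1.53 and 1.77, with adjusted p-values of 5.79e-07, 1.34e-10, 5.87e-12 and 3.95e-12. In SUM159 the rises were larger, 8.79-fold for C1R (log2 3.14, adjusted p 1.62e-14) and 21.7-fold for C1S (log2 4.44, adjusted p 1.29e-15). The number of C1S counts per C1R count, from which differences in depth drop out, was 1.21 ± 0.0688 (SD, n = 2) in untreated A549 and 1.56 ± 0.0305 with PF-06873600, and 0.732 ± 0.0354 in untreated against 1.80 ± 0.0168 in treated SUM159. In SUM159 this ratio therefore turned from below to above 1. Of the exon bases of C1R, 11.6% are shared with C1RL on the same strand, and reads that fell on both genes had been set aside by the authors.

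Promoter sequence was looked up because several members moved together. RefSeq windows of 250 bases before the start site (GRCh38.p14) were matched by symbol for 6 of the 9 members, C1R, C5, CFB, CD46, CD55 and CD59; C3, C1S and SERPING1 were not matched. They were searched on both strands for the κB consensus bound by NF-κB, for TTGCNNAA (a C/EBP core), for AANNGAAA (an IRF core) and for TTCNNNGAA (a STAT motif), which transmit the cytokine signals named above. AANNGAAA and TTCNNNGAA can share bases with each other. Among 27305 windows of that length, 7.75%, 9.13%, 20.6% and 6.78% held these motifs, and of the 6 members 1, 1, 2 and 2 did. The motifs were chosen after the data were seen, and a match is a description of letters, not of binding. The part of the C1R window outside annotated exons is shown because it holds the single TTGCNNAA match among the members. It is chr12:7092541-7092695, minus strand, 250 to 96 bases before the start, and capitals mark the match, read on the opposite strand.
C1R: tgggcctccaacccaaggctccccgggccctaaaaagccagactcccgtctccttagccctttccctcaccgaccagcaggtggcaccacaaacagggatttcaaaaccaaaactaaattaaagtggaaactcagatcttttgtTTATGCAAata

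C3 is the component on which all pathways converge. Its gene lies on chromosome 19 (6677704 to 6730562, minus strand). C3 stood at 195 and 164 CPM in untreated A549, 423 and 387 with palbociclib, 372 and 355 with indisulam, 499 and 499 with both drugs, 852 and 868 with PF-06873600, 118 and 128 in untreated SUM159 and 2236 and 2231 in treated SUM159. No 2 groups overlapped, and the order from low to high was untreated SUM159, untreated A549, indisulam, palbociclib, the combination, PF-06873600 in A549 and PF-06873600 in SUM159. C3 was 2.26-fold higher with palbociclib than in untreated A549 (log2 1.18, 95% interval 1.02 to 1.34, adjusted p 1.60e-07). With indisulam it was 2.03-fold higher (log2 1.02, adjusted p 7.14e-08), with both drugs 2.78-fold (log2 1.48, adjusted p 3.43e-10) and with PF-06873600 4.80-fold (log2 2.26, adjusted p 1.21e-11). In SUM159 it was 18.2-fold higher with PF-06873600 (log2 4.19, 95% interval 4.02 to 4.36, adjusted p 7.29e-15). Per kb of MANE Select transcript, C3 ranked 3073 among 19042 genes in untreated SUM159 and 94 in treated SUM159. It shares 11.7% of its exon bases with a long noncoding RNA on the same strand that had 356 counts over all libraries.

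**Figure D1:**
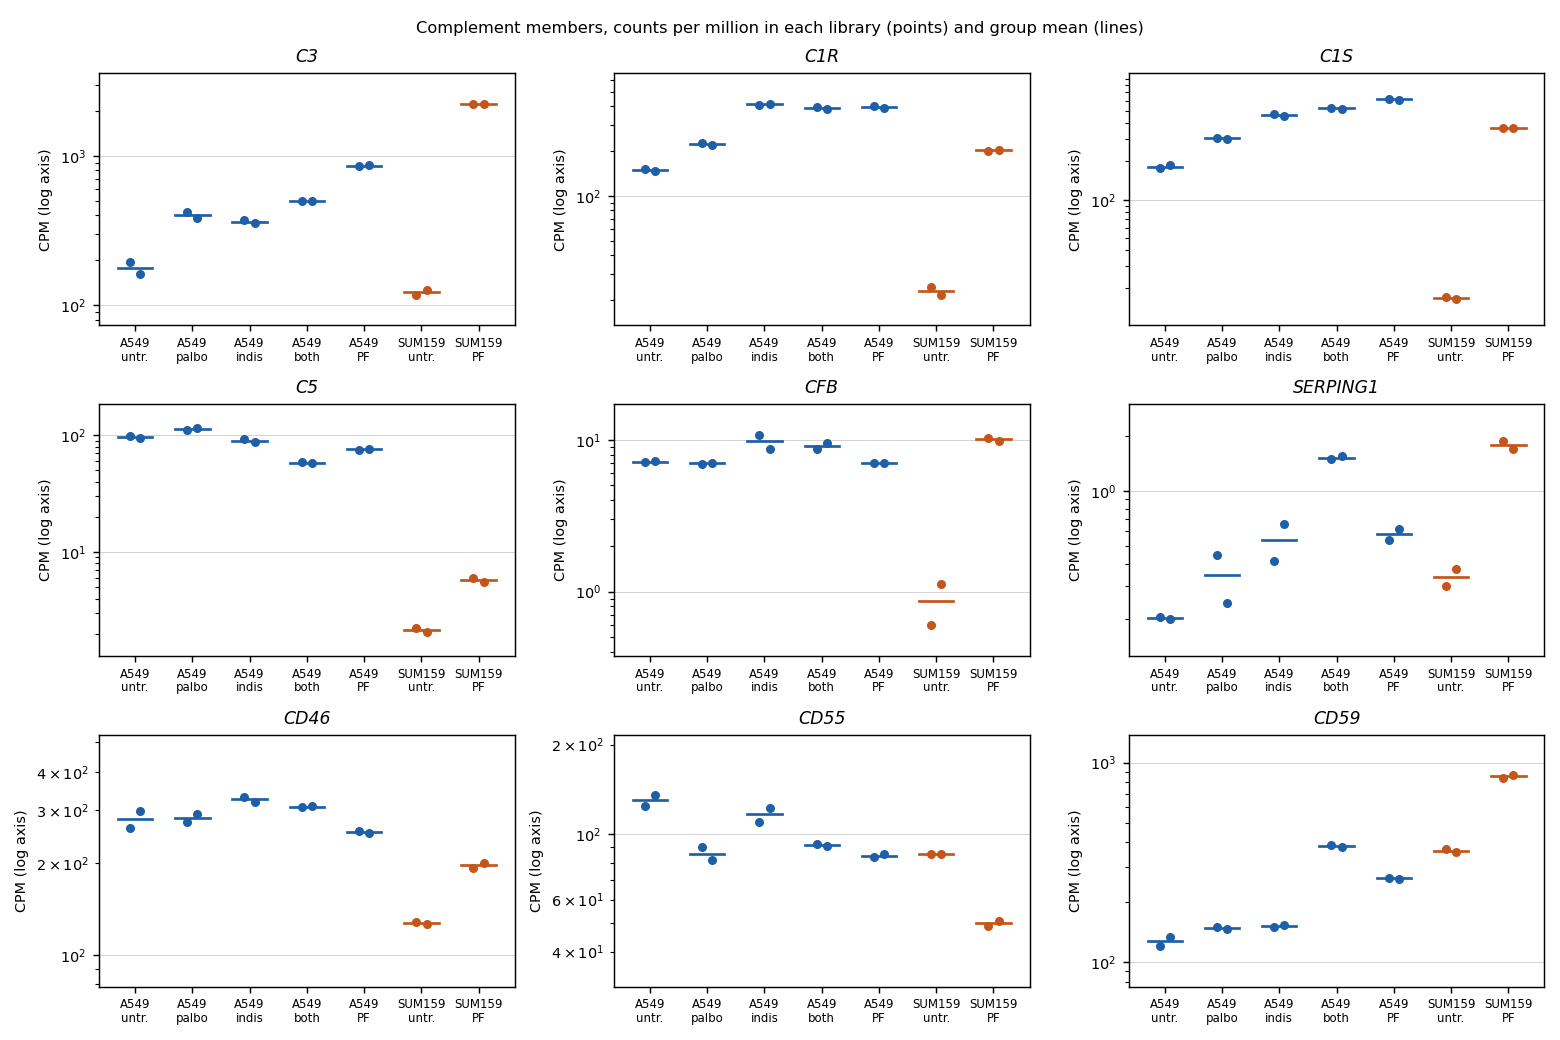
Level of each of the 9 genes in CPM (log axes with a separate range per gene) in the 7 groups, 1 point per library and a line at the mean of the 2 libraries (A549 blue, SUM159 orange). C3, C1R, C1S, CD59 and, at few counts, SERPING1 stand higher in every treated library than in the untreated libraries of the same line. C5 is lowest among A549 groups with both drugs and CD55 is lowest in treated SUM159.

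C5, cleaved to release the attractant C5a and to start the membrane attack complex, went a different way. It lies on chromosome 9 (120932987 to 121075195, minus strand). C5 stood at 99.6 and 94.3 CPM in untreated A549, 111 and 116 with palbociclib, 93.2 and 87.0 with indisulam, 59.2 and 57.5 with both drugs, 74.4 and 76.9 with PF-06873600, 2.23 and 2.07 in untreated SUM159 and 5.96 and 5.58 in treated SUM159. The 7 groups did not overlap, the combination was lowest among the A549 groups, and all SUM159 libraries lay far below all A549 libraries. With both drugs C5 fell by 0.73 on the log2 scale (log2 -0.73, SE 0.0652, adjusted p 1.73e-07) and with PF-06873600 by 0.36 (log2 -0.36, SE 0.0640, adjusted p 0.000263). With palbociclib alone it rose by 0.23 (adjusted p 0.0228), a call lost when only the compared groups were fitted (0.144) and without untreated replicate 2 (0.0515) or either palbociclib library (0.0553 and 0.179). With indisulam alone the difference of -0.11 was not called (adjusted p 0.191), but with TMM factors it was (log2 -0.18, adjusted p 0.0271). In SUM159 the direction was the opposite, a 2.67-fold rise (log2 1.42, SE 0.197, adjusted p 1.16e-05). C3 counts per C5 count went from 1.85 ± 0.158 (SD, n = 2) in untreated A549 to 8.55 ± 0.182 with both drugs and 11.4 ± 0.111 with PF-06873600, and from 57.3 ± 6.25 to 387 ± 17.6 in SUM159. Of the exon bases of C5, 408 lie opposite exons of CNTRL on the other strand, and the sources used here do not state whether the counting used strand.

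CFB encodes factor B, the protease of the alternative pathway, on chromosome 6 (31945650 to 31952086, plus strand). CFB stood at 7.14 and 7.20 CPM in untreated A549, 6.90 and 7.08 with palbociclib, 10.8 and 8.72 with indisulam, 8.65 and 9.46 with both drugs, 7.04 and 7.05 with PF-06873600, 0.603 and 1.13 in untreated SUM159 and 10.3 and 9.88 in treated SUM159. In A549 the libraries with indisulam, alone or combined, lay above all others, and in SUM159 the treated libraries lay above both untreated ones. CFB rose 11.7-fold in SUM159 (log2 3.54, 95% interval 3.05 to 4.04, adjusted p 2.96e-09), from 28 counts in the 2 untreated libraries together to 386. In A549 the log2 change was -0.04 with palbociclib (adjusted p 0.910) and -0.02 with PF-06873600 (adjusted p 0.898), with 95% intervals of -0.35 to 0.28 and -0.34 to 0.29. The rise with indisulam (log2 0.44, adjusted p 0.0187) was lost with DESeq2 (0.208), with only the compared groups (0.0661) and without indisulam replicate 1 (log2 0.28, 0.198). The rise with both drugs (log2 0.34, adjusted p 0.0474) was lost under most alternatives, among them the replicate block (0.0572), TMM factors (0.126), DESeq2 (0.263) and leaving out either untreated library (0.101 and 0.0962), palbociclib library (0.0548 and 0.0548), combination library (0.0661 and 0.218) or PF-06873600 library (0.0608 and 0.0619). Of the exon bases of CFB, 42.3% also belong to a readthrough gene on the same strand that had 0 counts in every library, and reads on the shared bases may have been set aside as ambiguous. The CFB window is shown because it held 3 of the 4 motifs. This window before the RefSeq start lies inside the annotated span of CFB given above, and 120 of its 250 bases are in annotated exons. The stretch outside annotated exons is chr6:31945845-31945974, plus strand, 250 to 121 bases before the RefSeq start. It is therefore not sequence upstream of the annotated gene. Capitals mark its AANNGAAA match, read on the opposite strand, and the κB and TTCNNNGAA matches lie downstream of the stretch.
CFB: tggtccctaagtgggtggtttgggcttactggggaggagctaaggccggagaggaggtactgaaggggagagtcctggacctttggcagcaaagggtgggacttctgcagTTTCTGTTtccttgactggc

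SERPING1 encodes C1 inhibitor, which inactivates C1r and C1s, on chromosome 11 (57597387 to 57619171, plus strand). It was the least abundant member, with 3 to 36 counts per library. SERPING1 stood at 0.204 and 0.200 CPM in untreated A549 (3 counts each), 0.445 and 0.244 with palbociclib, 0.415 and 0.661 with indisulam, 1.49 and 1.54 with both drugs, 0.536 and 0.618 with PF-06873600, 0.302 and 0.376 in untreated SUM159 and 1.87 and 1.70 in treated SUM159. The combination libraries lay above all other A549 libraries, and the single-drug groups overlapped with each other. From summed counts, the ratio to untreated A549 was 7.52 with both drugs (exact 95% counting interval 3.20 to 21.6), 2.88 with PF-06873600 (1.08 to 8.92), 2.68 with indisulam (0.995 to 8.35) and 1.66 with palbociclib (0.546 to 5.55), and the ratio in SUM159 was 5.26 (2.76 to 11.03). In the edgeR test SERPING1 was called with both drugs (adjusted p 7.25e-05), with PF-06873600 in A549 (0.0366) and in SUM159 (4.16e-05). It was not called with palbociclib (0.549) or indisulam (0.0626). Only its libraries with both drugs and in treated SUM159 reached 1 CPM, so it passed the filter through the groups where it is high. Its calls in these groups, and the member counts that include them, carry this limit. The calls with both drugs and in SUM159 were kept with no filter. The A549 call with PF-06873600 was lost with DESeq2 (0.170), with no filter (0.0604) and without either untreated (0.111 and 0.120), PF-06873600 (0.0746 and 0.152) or combination library (0.0522 and 0.0525).

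The membrane regulators did not move as a group. CD55 (decay-accelerating factor), which takes apart the enzymes that cleave C3 and C5, lies on chromosome 1 (207321519 to 207386804, plus strand). CD55 stood at 125 and 135 CPM in untreated A549, 90.0 and 81.4 with palbociclib, 110 and 123 with indisulam, 92.0 and 91.2 with both drugs, 83.4 and 85.4 with PF-06873600, 85.5 and 85.4 in untreated SUM159 and 48.8 and 50.8 in treated SUM159. Every treated library lay below both untreated libraries of its line. CD55 fell by 0.60 on the log2 scale with palbociclib (log2 -0.60, SE 0.0717, adjusted p 5.70e-05), by 0.50 with both drugs (log2 -0.50, SE 0.0714, 2.17e-05), by 0.62 with PF-06873600 in A549 (log2 -0.62, SE 0.0719, 4.13e-06) and by 0.78 in SUM159 (log2 -0.78, SE 0.0588, 1.54e-08). With indisulam the difference of -0.16 missed the threshold (adjusted p 0.0783) and passed it with TMM factors (-0.24, 0.0161), with DESeq2 (0.0385) and without untreated replicate 1 (0.0155) or indisulam replicate 2 (0.0407).

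CD59 (protectin), which blocks the last step of the membrane attack complex, moved in the other direction. It lies on chromosome 11 (33703010 to 33736479, minus strand). CD59 stood at 121 and 134 CPM in untreated A549, 151 and 147 with palbociclib, 150 and 154 with indisulam, 386 and 377 with both drugs, 264 and 262 with PF-06873600, 368 and 358 in untreated SUM159 and 841 and 865 in treated SUM159. The combination libraries lay above every other A549 library, while the palbociclib and indisulam libraries overlapped and lay just above the untreated ones. CD59 was 2.99-fold higher with both drugs than in untreated A549 (log2 1.58, 95% interval 1.45 to 1.71, adjusted p 1.51e-11), 2.06-fold higher with PF-06873600 (log2 1.04, adjusted p 2.64e-09) and 2.35-fold higher in treated SUM159 (log2 1.23, adjusted p 1.46e-10). With palbociclib the rise was 0.22 (adjusted p 0.0216) and with indisulam 0.25 (adjusted p 0.00382). The palbociclib call was lost with only the compared groups (0.161), without untreated replicate 1 (0.0680) and without either palbociclib library (0.124 and 0.0811), and the indisulam call with DESeq2 (0.0562). CD59 counts per CD55 count went from 0.982 ± 0.0171 (SD, n = 2) in untreated A549 to 4.16 ± 0.0357 with both drugs, and from 4.25 ± 0.0839 to 17.1 ± 0.148 in SUM159. The CD59 window is shown because it held matches to both AANNGAAA (read on the opposite strand) and the palindromic TTCNNNGAA. No annotated exon lies in it, it is chr11:33736480-33736729, minus strand, and capitals mark the matches.
CD59: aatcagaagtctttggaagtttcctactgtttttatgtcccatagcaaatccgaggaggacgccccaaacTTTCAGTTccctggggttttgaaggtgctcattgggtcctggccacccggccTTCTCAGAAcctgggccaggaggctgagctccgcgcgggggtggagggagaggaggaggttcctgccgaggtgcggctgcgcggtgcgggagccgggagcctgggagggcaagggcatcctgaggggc

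CD46 (membrane cofactor protein), a cofactor for the breakdown of C3b and C4b, lies near CD55 on chromosome 1 (207752037 to 207795513, plus strand). CD46 stood at 262 and 296 CPM in untreated A549, 273 and 291 with palbociclib, 332 and 318 with indisulam, 306 and 308 with both drugs, 255 and 251 with PF-06873600, 128 and 126 in untreated SUM159 and 194 and 201 in treated SUM159. The A549 groups spanned a narrow range, with the palbociclib libraries inside the range of the untreated ones, whereas both treated SUM159 libraries lay above the untreated ones. CD46 rose in SUM159 (log2 0.64, SE 0.0535, adjusted p 5.14e-08). In A549 it was called with indisulam (log2 0.22, adjusted p 0.0122), a call lost with TMM factors (0.0971), DESeq2 (0.126), only the compared groups (0.0797) and without untreated replicate 1 (0.0587) or indisulam replicate 1 (0.0928). The differences with palbociclib (log2 0.02, 95% interval -0.12 to 0.15, adjusted p 0.905), both drugs (0.14, 0.0736) and PF-06873600 (-0.14, 0.0705) were not called. Without untreated replicate 2 the combination passed (log2 0.23, 0.00168), and without untreated replicate 1 PF-06873600 did (log2 -0.23, 0.00164).

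**Figure D2:**
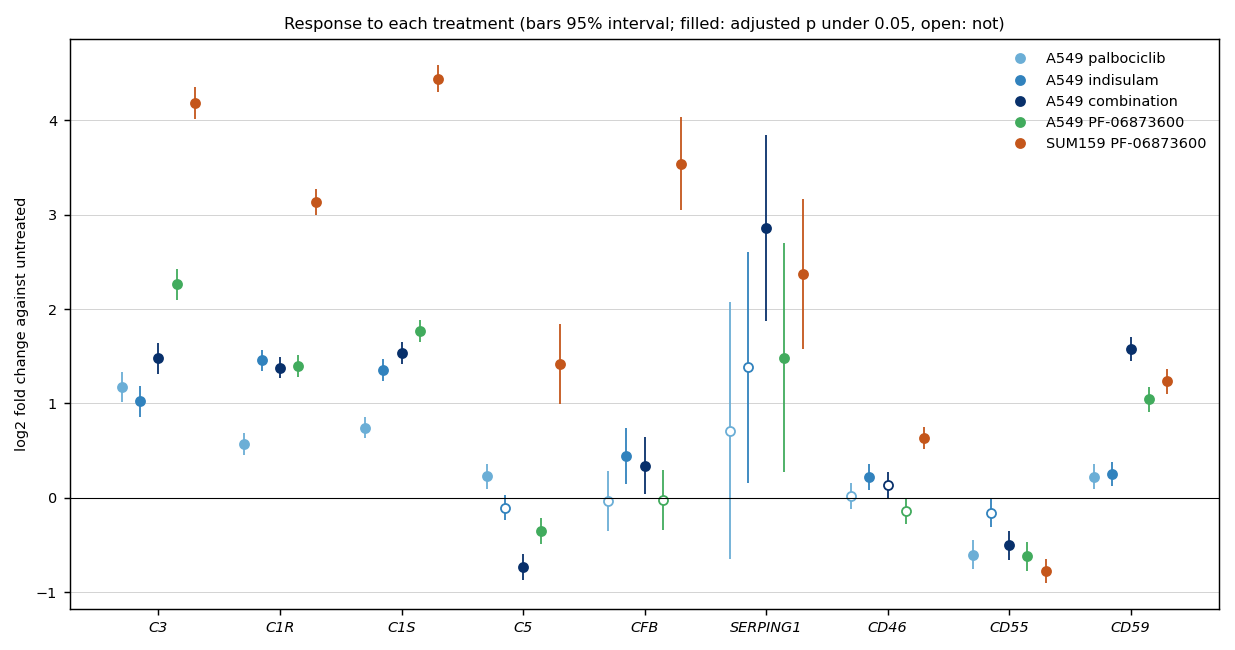
Log2 fold change of each gene against the untreated libraries of its line (vertical axis) for 4 treatments of A549 and 1 of SUM159, with bars for the 95% interval. Filled points have an adjusted p under 0.05 and open points do not. SUM159 shows the highest values for C3, C1R, C1S, C5 and CFB, and CD55 lies below 0 in every comparison.

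The single drugs were compared with no treatment to see what each did to the members alone. With palbociclib 5 members were higher (C3, C1R, C1S, C5 and CD59) and CD55 was lower. Of 15780 genes tested, 8.30% were higher and 7.40% lower, and the median log2 change was 0.23 over the 9 members against -0.01 over all genes. With indisulam 6 members were higher (C3, C1R, C1S, CFB, CD46 and CD59) and 0 lower, beside 28.0% and 17.5% of all genes. The median was 0.44 against 0.08. At an unadjusted p under 0.05 1 member, CD55, was lower in the edgeR test, and with DESeq2 CD55 was also called lower. Under TMM factors the share of higher genes among all indisulam calls moved from 61.6% to 50.4%.

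The combination was set against no treatment and against each drug, since the study asked what the second drug adds. Against untreated A549, 6 members were higher (C3, C1R, C1S, CFB, SERPING1 and CD59) and 2 lower (C5 and CD55), beside 35.1% and 30.0% of all genes, with a median of 1.38 against 0.05. Against palbociclib alone, 6 were higher and C5 was lower, beside 33.5% and 26.9% of all genes. The log2 differences were 0.30 for C3, 0.81 for C1R, 0.79 for C1S, 1.36 for CD59, 2.15 for SERPING1 and -0.96 for C5, with adjusted p-values from 1.04e-10 to 0.00239, and 0.37 for CFB (0.0337). CD46 (0.12, adjusted p 0.117) was not called, but passed with only the compared groups (0.0470) and without either untreated library (0.0263 and 0.0264). The CFB call was lost with TMM factors (0.0982), DESeq2 (0.231), no filter (0.0638) and without either palbociclib (0.108 and 0.0899) or combination library (0.0531 and 0.176). Against indisulam alone, 4 were higher (C3 by 0.46, C1S by 0.18, SERPING1 by 1.48 and CD59 by 1.33) and 2 lower (C5, log2 -0.63, and CD55, log2 -0.34), beside 22.0% and 23.9% of all genes. C1R did not pass (-0.08, adjusted p 0.259). The C1S call (0.0116) was lost without indisulam replicate 2 (0.0858) or combination replicate 1 (0.0740), and the SERPING1 call (0.00472) with DESeq2 (0.108) and without indisulam replicate 1 (0.0587).

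Whether the combination differed from the sum of both single-drug changes on the log2 scale was tested as an interaction. CD59 was the 1 member called above the sum, with 1.58 observed against a sum of 0.47, an interaction of 1.11 (95% interval 0.92 to 1.29, adjusted p 3.20e-07). Below the sum were C3 (1.48 against 2.20, interaction -0.72, adjusted p 0.000141), C1R (1.38 against 2.03, -0.65, 1.88e-05) and C1S (1.53 against 2.10, -0.57, 6.27e-05). C5 was also below, at -0.73 against a sum of 0.12 (interaction -0.85, adjusted p 8.11e-06). Thus 1 member was called higher and 4 lower, beside 10.7% and 14.5% of all genes. CFB (-0.07), CD46 (-0.10), SERPING1 (0.77, 95% interval -0.93 to 2.46) and CD55 (0.26) were not called, the last 2 also at values above the sum. CD55 (adjusted p 0.0794) passed without untreated replicate 1 (0.0153) or indisulam replicate 2 (0.0477).

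**Figure D3:**
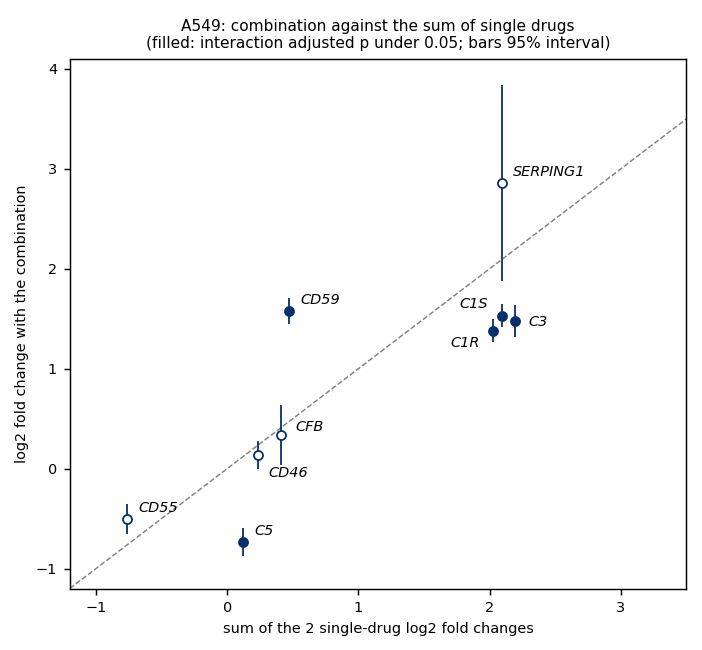
Log2 fold change with both drugs in A549 (vertical axis, bars the 95% interval) against the sum of the log2 fold changes with palbociclib and with indisulam alone (horizontal axis), 1 point per gene. The dashed line marks equality, and filled points have an interaction with an adjusted p under 0.05. Of the filled points CD59 lies above the line and C3, C1R, C1S and C5 lie below it.

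Alongside these changes in A549, the summed level of the 6 epithelial markers was 5573 to 6492 CPM in untreated libraries, 8990 to 9116 with palbociclib, 10077 to 10085 with indisulam, 13239 to 13816 with both drugs and 14356 to 14449 with PF-06873600. These sums are made up mostly of keratins, and EPCAM (18.3 and 20.6 CPM untreated) and CDH1 (152 and 160) went the other way, to 13.9 and 15.1 and to 126 and 130 CPM with both drugs and to 7.73 and 8.35 and to 93.1 and 98.1 CPM with PF-06873600. The 6 fibroblast markers summed to 2.04 to 2.20 CPM in untreated libraries and to 74.7 to 75.0 with both drugs, nearly all of it COL1A1. The 5 mesenchymal markers summed to 2250 to 2482 CPM in untreated libraries and to 3690 to 3738 with both drugs (4 of 5 called higher), and the 7 leukocyte markers to 7.73 to 9.04 and 13.7 to 15.2 CPM (3 of 4 tested higher, and 4 of 4 with PF-06873600). Of all genes tested, 35.1% were higher with both drugs and 28.5% with PF-06873600. The 6 hepatocyte markers summed to 121 to 123 CPM in untreated libraries and to 64.7 to 70.1 with both drugs, although TTR among them rose and reached 9.43 CPM. The part of these shifts in the complement values was not tested.

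PF-06873600 was given to both lines at the same dose and time. In A549 5 members were higher (C3, C1R, C1S, SERPING1 and CD59) and 2 lower (C5 and CD55), beside 28.5% and 27.8% of 15780 genes. In SUM159 8 were higher and CD55 was lower, beside 38.1% and 35.6% of 15055 genes, and the median log2 change over the members was 1.04 in A549 and 2.37 in SUM159. The difference between the responses was tested in 1 model of both lines with 17279 genes. In it the log2 response of 6 members was higher in SUM159, CFB by 3.57, C1S by 2.67, C3 by 1.92, C5 by 1.77, C1R by 1.74 and CD46 by 0.78, and 0 were lower, beside 25.8% and 27.2% of all genes. Adjusted p-values for the 6 ran from 1.05e-14 for C1S to 3.20e-07 for CD46. At an unadjusted p under 0.05 the count of lower members was also 0, and with DESeq2 it was 0 too. SERPING1 (0.88, 95% interval -0.70 to 2.46) and CD55 (-0.16, -0.36 to 0.05) were not called. CD59 (0.19, adjusted p 0.0513) passed with TMM factors (0.0198), with DESeq2 (0.0248), with a mean of at least 50 counts (0.0399) and without untreated A549 replicate 1 (0.00374).

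The lines also differed before treatment. Untreated SUM159 had lower levels than untreated A549 for 7 members, by log2 -5.49 for C5, -3.43 for C1S, -3.05 for CFB, -2.71 for C1R, -1.14 for CD46, -0.60 for CD55 and -0.55 for C3, and a higher level for CD59 (1.51, adjusted p 1.14e-14). This compares with 41.9% of genes higher and 36.8% lower. The adjusted p-values of the 7 lay between 1.91e-19 for C5 and 1.56e-06 for C3. SERPING1 was not called (0.72, adjusted p 0.336). After PF-06873600, the libraries of C3, CFB, SERPING1 and CD59 stood higher in SUM159 than in treated A549, and those of C1R, C1S, C5, CD46 and CD55 stood lower, a difference between treated groups that was not tested. Because the lines differ in the tissue of origin and in every other respect, the origin of a difference between them cannot be told apart. In SUM159 the summed fibroblast markers went from 1785 to 1878 CPM in untreated to 4647 to 4834 CPM in treated libraries, with 6 of 6 called higher, beside 38.1% of all genes. The 6 epithelial markers went from 2532 to 2676 CPM down to 1139 to 1175 CPM, and the 7 leukocyte markers from 10.7 to 11.2 CPM up to 27.7 to 30.2 CPM, mostly PTPRC. The 6 hepatocyte markers went from 10.2 to 10.5 CPM up to 136 to 139 CPM, nearly all of it SERPINA1, the 5 mesenchymal markers from 7963 to 8347 up to 20145 to 20215 CPM, and the 4 endothelial markers from 11.2 to 11.8 up to 27.7 to 29.5 CPM. Their part in the complement response was not tested.

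Levels of different genes were compared per kb of MANE Select transcript. In untreated A549 the order was CD46 (84.1 ± 7.28 CPM per kb, SD, n = 2), C1S (67.7 ± 2.51), C1R (60.3 ± 1.19), CD55 (50.2 ± 2.91), C3 (34.3 ± 4.26), C5 (17.7 ± 0.688), CD59 (16.9 ± 1.27), CFB (2.90 ± 0.0179) and SERPING1 (0.110 ± 0.00151). C5 and CD59 did not differ beyond their spread. With both drugs C1S led at 196 ± 2.05 CPM per kb, followed by C1R at 157 ± 2.52, and CD59 at 50.4 ± 0.758 stood above CD55 at 35.4 ± 0.228. In untreated SUM159 the membrane regulators led on this length, with CD59 at 48.0 ± 0.959, CD46 at 38.3 ± 0.469 and CD55 at 33.0 ± 0.00750 CPM per kb. In treated SUM159 C3 led at 427 ± 0.640, above C1S at 136 ± 0.295 and CD59 at 113 ± 2.26. The order depends on the length used, and per kb of merged exons CD46 ranked 3 and C1R ranked 1 in untreated A549, C1R led in place of C1S with both drugs, and in untreated SUM159 C3 ranked 2, above CD55 and CD46.

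**Figure D4:**
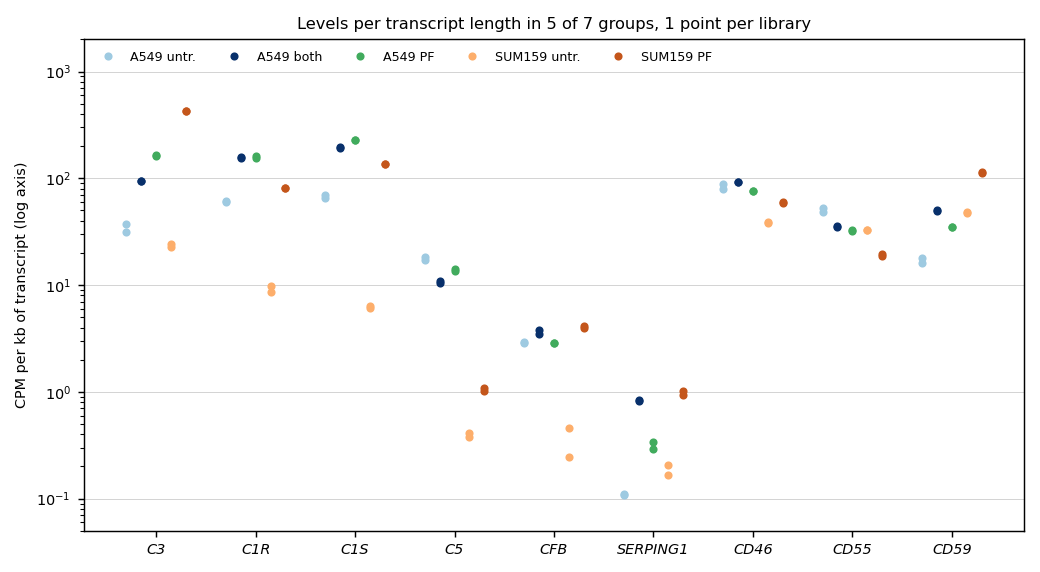
Level of each gene in CPM per kb of MANE Select transcript (log axis), 1 point per library, in untreated A549, A549 with both drugs, A549 with PF-06873600, untreated SUM159 and treated SUM159. The C3 points of treated SUM159 are the highest, and SERPING1 is lowest in each of the 5 groups.

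Summed over C3, C1R, C1S, C5 and CFB, the components made up 615 ± 22.2 CPM (SD, n = 2) in untreated A549, 1052 ± 29.9 with palbociclib, 1339 ± 17.9 with indisulam, 1482 ± 12.3 with both drugs and 1956 ± 0.797 with PF-06873600. In SUM159 the sum went from 166 ± 4.60 to 2817 ± 3.29 CPM. The 3 membrane regulators summed to 537 ± 41.3 CPM in untreated A549, 517 ± 4.05 with palbociclib, 593 ± 2.47 with indisulam, 780 ± 4.52 with both drugs and 600.4 ± 2.71 with PF-06873600, and to 575 ± 8.83 and 1100.5 ± 23.7 in untreated and treated SUM159. The component sum of each treated group lay above the untreated libraries of its line, while the regulator sum with palbociclib lay inside the untreated range.

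The genes with the most similar pattern were ranked by Pearson's r of log2(CPM + 1) over the 14 libraries among 14340 genes with a mean of at least 1 CPM, as a description, since libraries of a group and of a line share their source. C1R was the nearest gene to C1S (r = 0.988), and C1S was the next nearest to C1R after SEMA3A (0.989) and SLC37A1 (0.988). Within the 10 A549 libraries r between C1R and C1S was 0.969. C5 was nearest to NR1H4 (0.999, and 0.942 in the A549 libraries alone). C3 was nearest to SLC22A5 (0.955), CFB to CDK18 (0.978), CD46 to SPATS2 (0.990), CD55 to VEZF1 (0.974) and CD59 to IFI27 (0.991). SERPING1 lay under the minimum level and was not ranked.

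The rest of the complement system was followed in 4 lists of 52 further genes, of which 27 reached 1 CPM in at least 1 group. In A549 21 could be tested, and 4 were called with palbociclib, each higher, while 7 were higher and 3 lower with indisulam, 12 and 6 with both drugs and 10 and 3 with PF-06873600. Of all genes tested in A549, 8.30%, 28.0%, 35.1% and 28.5% were higher in these comparisons and 7.40%, 17.5%, 30.0% and 27.8% lower, so that the counts with indisulam and the 6 lower with both drugs lie near the share over all genes. In SUM159 22 of 25 tested were higher and 1 lower, beside 38.1% and 35.6% of all genes. Several of the 25, among them ITGAX, ITGAM, C3AR1, C7 and CFI, had at most 8 counts in each untreated SUM159 library. They passed the filter through the treated group, so a call of theirs could only be higher, and the count carries this limit. In A549 C4BPB, CSMD2 and CSMD3 reached 1 CPM only with both drugs, and the count of higher genes there carries the same limit. Complement factor I (CFI), the protease that cuts C3b, rose in all 5 comparisons, from 3.60 and 4.08 CPM in untreated A549 to between 16.3 and 26.5 in treated A549 libraries and from at most 0.438 to 2.36 and 2.46 CPM in SUM159. Clusterin (CLU), an inhibitor of the membrane attack complex, rose with both drugs (log2 0.85) and in SUM159 (log2 2.07). C4BPA, a subunit of C4b-binding protein, fell with both drugs (log2 -0.67), and vitronectin (VTN) rose in all 5 comparisons (log2 1.03 to 2.51). C4BPB, the other subunit, stood at most at 0.200 CPM in untreated A549 and at 1.84 and 2.45 CPM with both drugs. C4A and C4B are near-identical, so their counts are uncertain.

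C1RL, the C1r-like protease beside C1R, fell in A549 with indisulam (log2 -0.86), both drugs (-1.18) and PF-06873600 (-0.53), where C1R rose, and rose in SUM159 (2.32). Factor D (CFD), which activates factor B, fell with both drugs (log2 -1.04). Thrombomodulin (THBD) and SUSD4, further regulators, rose with both drugs by 1.62 and 2.42. Of the receptor genes, ITGAX, a chain of complement receptor 4, rose in SUM159 from 0.302 and 0.313 to 22.1 and 22.4 CPM (log2 6.15), and C3AR1, the C3a receptor, from 0.241 and 0.501 to 4.30 and 5.03 CPM (log2 3.63). In the untreated libraries ITGAX had 5 counts each and C3AR1 had 4 and 8. Both passed the filter through the treated group, and their log2 values rest on these few counts. ITGB2, the beta chain that pairs with ITGAX and ITGAM, fell with both drugs in A549 (log2 -2.10) and rose in SUM159 (log2 4.19). Of the genes for C1q, the recognition unit that C1r and C1s join, C1QA and C1QC had 0 counts in every library, which allows a level of up to 0.230 CPM, and C1QB reached at most 0.292 CPM.

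**Figure D5:**
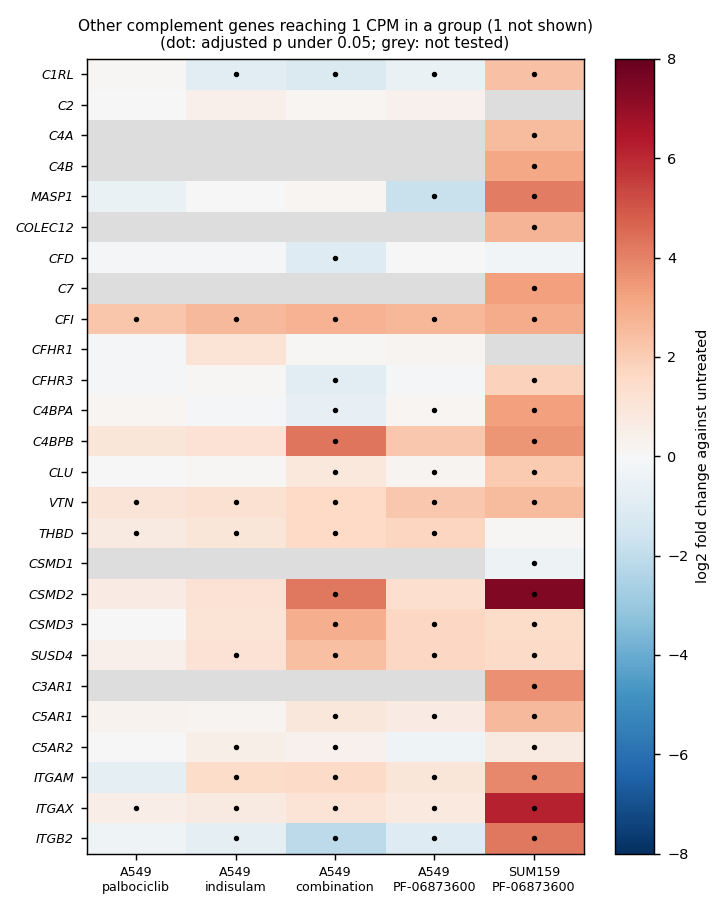
Log2 fold change (colour) of 26 further complement genes that reached 1 CPM in a group, for the 4 A549 treatments and for SUM159 with PF-06873600. A dot marks an adjusted p under 0.05 and grey a gene that was not tested. CFI and VTN are higher in all 5 columns, and C1RL is lower with indisulam, both drugs and PF-06873600 in A549 and higher in SUM159.

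Genes of the cytokines and transcription factors known to induce complement genes were measured beside the members. With both drugs 8 of 12 factor genes were called, each higher, beside 35.1% of all genes higher and 30.0% lower, among them IRF1 (log2 1.44), NFKB2 (1.01), RELB (0.93) and STAT3 (0.83). With indisulam alone 8 were also higher and 0 lower, beside 28.0% and 17.5% of all genes. With palbociclib alone 4 were higher and 0 lower, beside 8.30% and 7.40%. With PF-06873600 in A549 6 were higher and 3 lower (NFKB1, log2 -0.19, CEBPA, -0.59, and IRF9, -1.12), beside 28.5% and 27.8% of all genes. In SUM159 7 of 11 tested were higher, with RELB at 1.93, STAT2 at 1.41, IRF1 at 1.39 and NFKB2 at 1.34, and NFKB1 was lower (log2 -0.26), beside 38.1% and 35.6% of all genes. IL6 stood at 0.533 and 0.544 CPM in untreated A549, 7.09 and 7.40 with both drugs, 1.19 and 1.99 in untreated SUM159 and 48.4 and 50.7 in treated SUM159. IL1B went from 0.533 and 0.544 to 5.53 and 5.54 CPM with both drugs and from 0.362 and 0.376 to 23.5 and 24.4 CPM in SUM159. Of the 8 cytokine genes listed, 3 could be tested in A549 and 4 in SUM159. Each of these was higher with both drugs and in treated SUM159, beside 35.1% and 38.1% of all genes. The 3 in A549 were also higher with palbociclib, indisulam and PF-06873600, beside 8.30%, 28.0% and 28.5% of all genes. IL6 and IL1B had 8 counts in each untreated A549 library, and IL1B had 6 in each untreated SUM159 library. There they passed the filter through the treated groups where they are high, and these counts of higher genes carry this limit. IFNG and OSM had 0 counts in every library, TNF at most 5 and IFNB1 at most 1. Whether these genes had a part in the complement values was not tested.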

How the data were processed

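Strand-specific poly(A) libraries were read as single ends of 65 bases, and the authors deposited 1 table of raw read counts per gene and library, with reads aligned to hg38 and no normalization. The submitters' processing notes name HISAT2 2.2.1 and HTSeq, with no roles, and the annotation release and the use of strand in counting are not given in the sources used here. Reads on several genes (3.68% to 4.40% of the gene totals) were set aside in the deposited tables, and the 9 summary lines were left out here. Symbols and positions came from GENCODE 44.

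The 2 libraries of each group, taken from the sample labels, were scaled by their total on genes (13060374 to 21149256) and kept as replicates. Genes passing filterByExpr were tested with the quasi-likelihood test of edgeR 4.0.16 (R 4.3.3) and Benjamini-Hochberg adjustment over all of them, at a threshold of 0.05: 15780 genes in a model of 10 A549 libraries, 15055 in a model of 4 SUM159 libraries and 17279 in a model of both lines. All 9 members passed the filter in each model. SERPING1 did so through the groups where it is high, since its libraries reached 1 CPM only with both drugs and in treated SUM159. Each standard error comes from the log2 fold change and F. An exact permutation test of 2 against 2 libraries cannot give a two-sided p under 0.33, so none was run. The text names the 9 members, genes of the other complement lists that reached 1 CPM in a group, and per member the genes of nearest pattern; the C1q genes, the genes of inducing cytokines and factors, and the marker genes were named beside these from the same lists. The members and lists were chosen with earlier results of these data known. Alternatives were TMM factors, DESeq2 1.42.0, no filter, the replicate number as a block, a minimum mean of 50 counts, models of the compared groups alone and each library left out. The scripts were tested on simulated data. Promoter windows were RefSeq's, on GRCh38.p14. Figures were drawn with matplotlib 3.10.9 and tables handled with pandas 2.3.3 in Python 3.11.15, and exact intervals came from scipy 1.17.1. Some genes of the lists are counted but not reported here by name.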

Additional observations from a re-analysis of the deposited data

Results flagged for a closer look

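For 6 of the 9 members the log2 response to PF-06873600 differed between SUM159 and A549 in the edgeR test of the difference itself. All 6 were higher in SUM159, beside 25.8% of 17279 genes higher and 27.2% lower in the same test. The difference, SUM159 minus A549, was 1.92 for C3 (adjusted p 1.22e-11), 1.74 for C1R (4.79e-12), 2.67 for C1S (1.05e-14), 1.77 for C5 (2.46e-08), 3.57 for CFB (2.30e-09) and 0.78 for CD46 (3.20e-07). For C5 the response was below 0 in A549 and above 0 in SUM159, and both were called. For C3, C1R and C1S both responses were called and upward. For CFB and CD46 the response was called in SUM159 and not in A549. With 2 libraries per group, single libraries could not be checked as outliers.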

How the results depend on the processing

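Over all comparisons and alternatives, 1426 of 1497 member fold changes kept their direction and their side of the threshold, 49 lost a call, 18 gained one and 4 changed sign. The 4 were uncalled values: CD46 with palbociclib, negative without untreated A549 replicate 1 or palbociclib replicate 2 (log2 -0.069 to 0.108 with each library left out), and CFB, positive without indisulam replicate 1 in the combination against indisulam (-0.250 to 0.056) and in the interaction (-0.214 to 0.091). Each library of a model was left out for every comparison, also libraries of groups outside that comparison. Such an omission reaches the values mainly through the shared spread and can hardly move a fold change. The 1426 unchanged values include many of this kind. No member changed sign with TMM factors or DESeq2, and TMM moved the median of all genes by less than 0.1. The number of members called per comparison stayed within 1.5 times, and with each library left out it ran from 4 to 6 for palbociclib, 4 to 7 for indisulam, 7 to 8 for both drugs, 6 to 7 for PF-06873600 in A549 and 9 to 9 in SUM159. With the replicate block 6, 6, 7, 7 and 9 members were called in these comparisons, and the CFB call with both drugs was the 1 member call that it changed. Same-numbered libraries deviated together at r = -0.295 (palbociclib and untreated) to 0.263 (indisulam and untreated), and the labels do not say that numbers mark a shared culture or day. With the palbociclib numbers crossed, chosen after seeing the data, 3023 in place of 2337 genes were called for palbociclib, and with the untreated SUM159 numbers crossed 13575 in place of 13523 for the 2 untreated lines. Over all genes, the palbociclib calls moved from 2478 to 1584 with DESeq2 (967 higher, 617 lower), 949 with only the compared groups, and 1472 or 1301 without palbociclib replicate 1 or 2. The cause of these shifts was not tested. With TMM factors the combination against untreated A549 had 4908 higher and 5397 lower genes, in place of 5544 and 4739. Depth limits SERPING1 most, with 3 counts in each untreated A549 library.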
